A study of Mus musculus with 8 samples.

Results

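Expression of 10 acute phase genes was followed in primary hepatocytes of control mice and of mice with a liver knockout of the zinc and manganese transporter ZIP8 (Slc39a8), the knockout cells also after manganese, iron, selenite or zinc. The genes were taken by name: the 4 serum amyloid A genes Saa1, Saa2, Saa3 and Saa4, the short pentraxins Apcs and Crp, the orosomucoids Orm1 and Orm2, haptoglobin (Hp) and lipocalin 2 (Lcn2). They are 10 of the 55450 genes in the count files, and all 10 were among the 15468 genes with enough reads to be tested. The hepatocytes came from C57BL/6 mice aged 8 weeks. Control cells (WT) carried the floxed Slc39a8(F/F) alleles without Cre and were left without added metal (2 libraries). Knockout cells (LSKO, Alb-cre(+/+);Slc39a8(F/F)) carried the same floxed alleles and Cre under the albumin promoter, which acts in hepatocytes. LSKO cells were left without added metal (2 libraries) or received MnCl2, FeCl2, sodium selenite or ZnCl2 at 2 µM (1 library each). The incubation lasted 24 h by the sample protocol and overnight by the design text. No metal was given to WT cells, so each metal was compared within LSKO cells. Every group was kept in serum-free medium with 10 µM dexamethasone, a glucocorticoid that itself raises many acute phase genes.

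The acute phase response is the change in the set of proteins that the liver secretes during infection or injury. Interleukin-6, acting through STAT3, and interleukin-1, acting through NF-kB, drive it together with the C/EBP transcription factors, and glucocorticoids strengthen it. Serum amyloid A proteins travel on high-density lipoprotein. Pentraxins bind bacterial surfaces and dying cells, orosomucoids bind small molecules and many drugs, haptoglobin captures free haemoglobin, and lipocalin 2 withholds iron by binding bacterial siderophores.

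Between 19943899 and 27731054 reads per library were assigned to genes, and each of the 10 genes had at least 165 reads in every library. Expression is given as normalized CPM, CPM computed on the reads in genes after TMM scaling of each library, so that libraries of unequal depth can be compared. Slc39a8 itself was at 12.7 and 15.5 normalized CPM in the WT libraries, at 8.14 and 1.87 in the untreated LSKO libraries and between 1.48 and 3.17 under the metals (untreated LSKO against WT, log2 fold change -1.52, SE 0.443, adjusted p = 0.0426 by edgeR). LSKO replicate 1 kept more Slc39a8 reads than LSKO replicate 2, which also had the higher level of all 10 acute phase genes. The count files were of differing kinds. The LSKO untreated and manganese libraries held 8.79% to 10.0% unaligned reads and at most 0.00019% of reads discarded for low alignment quality, whereas the WT, iron, selenite and zinc libraries held 4.12% to 4.94% and 1.03% to 1.26%. In the manganese library 72.2% of reads fell in genes, against 39.3% to 42.1% in the others. Genotype and this difference between files cannot be told apart for untreated LSKO against WT, nor can the metal and this difference for iron, selenite or zinc against untreated LSKO. Manganese against untreated LSKO, and iron, selenite or zinc against WT, compare libraries alike in those 2 shares, but manganese and the larger share of reads in genes of its library cannot be told apart. None of the 10 genes shares exon bases with another annotated gene on either strand. With 1 library per metal, each test takes its spread from the replicate pairs of WT and LSKO and assumes that treated cells vary alike. Nothing in the sources says whether those replicates came from separate mice, so p-values measure the spread between these libraries.

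The genes lie in 3 clusters and 2 single loci of the mouse genome, build GRCm38. The serum amyloid A genes are neighbours on chromosome 7, Saa3 (ENSMUSG00000040026) at chr7:46711998-46715700, Saa4 (ENSMUSG00000040017) at chr7:46727998-46732603 and Saa1 (ENSMUSG00000074115) at chr7:46740497-46742980 on the minus strand, and Saa2 (ENSMUSG00000057465) at chr7:46751790-46754313 on the plus strand. Crp (ENSMUSG00000037942) at chr1:172698055-172833031 and Apcs (ENSMUSG00000026542) at chr1:172893961-172895041 are neighbours on chromosome 1. Orm1 (ENSMUSG00000039196) at chr4:63344560-63348163 and Orm2 (ENSMUSG00000061540) at chr4:63362449-63365878 flank Orm3 on chromosome 4. Hp (ENSMUSG00000031722) is at chr8:109575128-109579172 and Lcn2 (ENSMUSG00000026822) at chr2:32384633-32388252. Some of these genes are near-identical copies: of all 50-base stretches of their annotated transcripts, 31.5% in Saa1 and 30.0% in Saa2 occurred in another gene, mostly each other, as did 20.4% in Orm1 and 22.7% in Orm2. Reads that lie wholly in such stretches have no single origin, so the split of those reads within these pairs is uncertain. The share of 50-base stretches was 4.15% in Saa3, 1.27% in Saa4, 0.56% in Crp and 0 in Apcs, Hp and Lcn2. The authors state a read length of 150 bases. Of 150-base stretches, 2.11% in Saa1, 2.03% in Saa2 and 0 in Orm1, Orm2 and Saa3 occurred in another gene.

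The sequences just upstream of the start sites show how far the family shares control regions. RefSeq start sites on GRCm38.p6 were found for 8 of the 10 genes, and the 250 bases before each start were searched on both strands for short motifs, with no overlap between matches. The C/EBP letters TTGCNNAA occurred in 6 of the 8 (Saa1, Saa2, Saa3, Saa4, Orm2 and Lcn2), against 9.55% of 27025 mouse promoters. Saa4 held this motif at 2 places, 245 to 238 and 52 to 45 bases before the start. The STAT letters TTCNNNGAA occurred in Apcs alone among the 8, against 7.18% of all promoters. The longer NF-kB (0.337% of promoters), glucocorticoid receptor (0.0259%) and HNF1 (0.0074%) motifs occurred in none of the 8. Motifs this rare are seldom met among 8 promoters, so nothing is concluded from their absence. A match is a description of the letters, not a measured binding site. The Saa1 and Saa2 promoters were identical at 94.8% of aligned positions (238 of 251), whereas Saa3 and Saa4 shared 44.5% with each other. That level was also met between promoters of different families, such as Crp and Lcn2 (44.2%) and Orm2 and Saa3 (51.5%). The promoters of the serum amyloid genes and of Orm2 with C/EBP letters, and that of Apcs with STAT letters, are shown 5′ to 3′ with the motif match in capitals. The 250 bases run up to the base before the RefSeq start, except that Saa2 (207 bases shown) and Saa3 (226 bases) stop where the annotated GENCODE gene begins upstream of that start. The Lcn2 window (chr2:32387740-32387989) lies wholly within the annotated GENCODE gene, so it is not upstream of that gene and is not shown. Saa1 is chr7:46742981-46743230 (minus strand), Saa2 chr7:46751583-46751789 (plus), Saa3 chr7:46715701-46715926 (minus), Saa4 chr7:46732604-46732853 (minus), Orm2 chr4:63362199-63362448 (plus) and Apcs chr1:172895055-172895304 (minus).
Saa1: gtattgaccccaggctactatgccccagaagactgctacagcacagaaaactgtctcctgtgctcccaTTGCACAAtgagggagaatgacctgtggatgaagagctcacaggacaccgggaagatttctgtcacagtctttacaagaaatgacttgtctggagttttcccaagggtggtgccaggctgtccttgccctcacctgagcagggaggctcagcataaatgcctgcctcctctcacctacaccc
Saa2: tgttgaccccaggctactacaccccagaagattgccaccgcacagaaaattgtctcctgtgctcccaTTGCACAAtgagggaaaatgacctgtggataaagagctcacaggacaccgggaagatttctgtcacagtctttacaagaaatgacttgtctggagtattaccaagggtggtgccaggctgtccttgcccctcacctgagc
Saa3: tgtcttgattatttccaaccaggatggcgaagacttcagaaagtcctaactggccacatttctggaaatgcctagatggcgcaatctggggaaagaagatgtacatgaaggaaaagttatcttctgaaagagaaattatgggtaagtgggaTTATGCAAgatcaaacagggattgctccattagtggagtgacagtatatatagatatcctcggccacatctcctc
Saa4: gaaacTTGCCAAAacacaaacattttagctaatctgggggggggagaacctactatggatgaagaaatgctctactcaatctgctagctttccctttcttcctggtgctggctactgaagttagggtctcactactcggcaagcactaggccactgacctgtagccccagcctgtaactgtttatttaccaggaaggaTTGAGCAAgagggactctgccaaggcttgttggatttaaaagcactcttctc
Orm2: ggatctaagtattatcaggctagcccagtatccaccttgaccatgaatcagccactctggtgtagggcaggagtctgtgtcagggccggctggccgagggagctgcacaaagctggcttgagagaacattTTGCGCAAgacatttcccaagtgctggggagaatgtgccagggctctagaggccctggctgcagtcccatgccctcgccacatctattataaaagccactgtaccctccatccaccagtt
Apcs: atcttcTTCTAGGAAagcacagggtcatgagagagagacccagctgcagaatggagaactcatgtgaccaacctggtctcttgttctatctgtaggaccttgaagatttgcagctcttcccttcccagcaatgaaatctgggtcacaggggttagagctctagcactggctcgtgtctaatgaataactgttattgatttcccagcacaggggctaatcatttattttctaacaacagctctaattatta

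Per kilobase of principal transcript, the mean level over the 8 libraries was highest for Lcn2 (2002 normalized CPM per kb) and Hp (1468), followed by Saa1 (875), Orm1 (675) and Saa2 (478). The remaining genes were far lower, with Saa3 at 122, Orm2 at 78.2, Apcs at 55.6, Crp at 24.3 and Saa4 at 9.55. Together the 10 genes took 0.304% and 0.300% of reads in genes in WT cells, 0.406% and 0.499% in untreated LSKO cells, and 0.780%, 0.430%, 0.854% and 0.677% with manganese, iron, selenite and zinc. The combined share was thus lowest in WT, and in the iron library it lay between the untreated LSKO libraries.

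**Figure D1:**
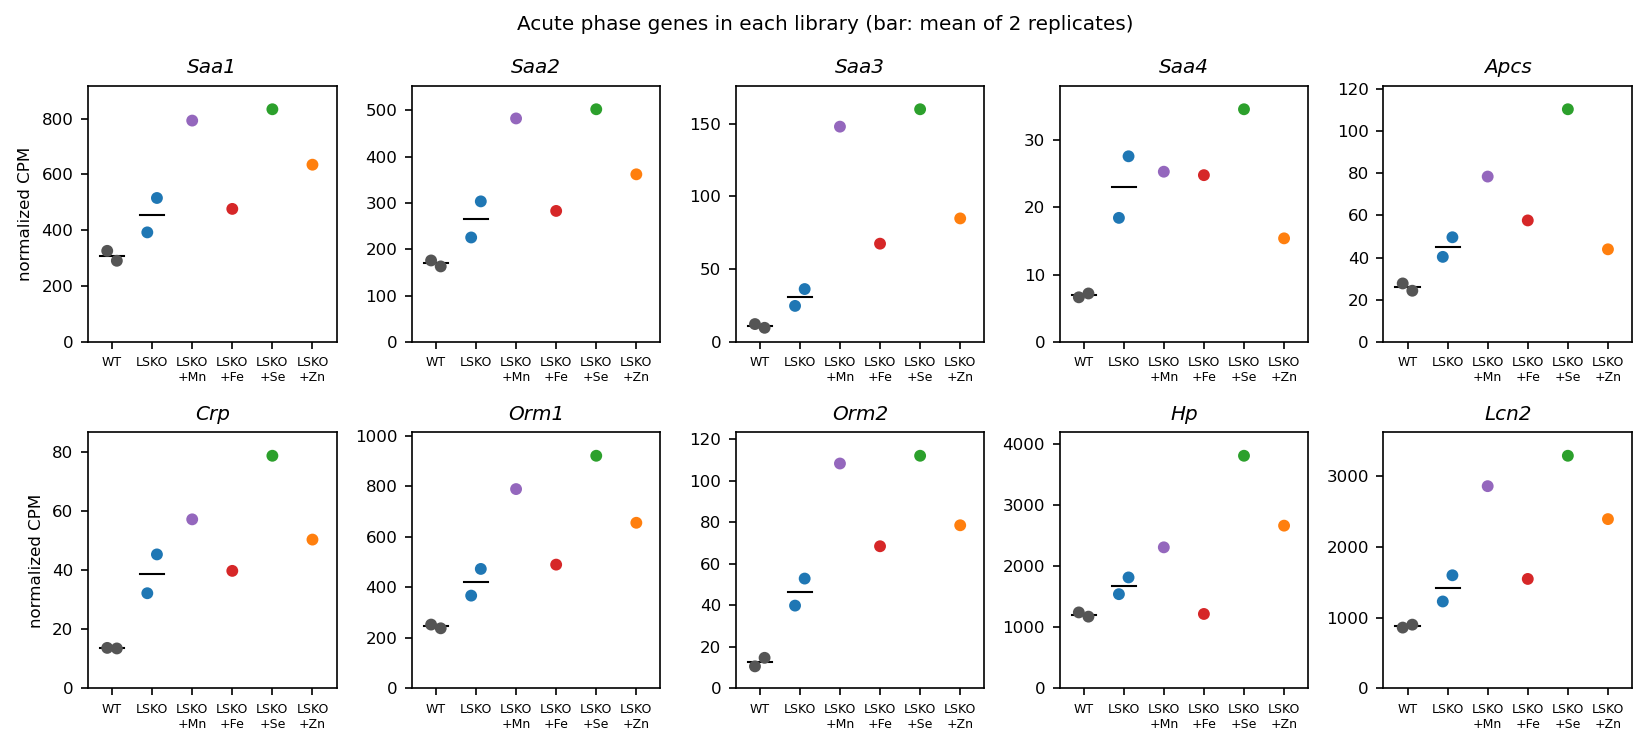
Normalized CPM (linear axis from 0, scaled per gene) of each of the 10 genes in each of the 8 libraries, 1 point per library and groups along the horizontal axis, with a bar at the mean where a group has 2 libraries. Both untreated LSKO libraries lie above both WT libraries for all 10 genes, and the selenite library lies above both untreated LSKO libraries for all 10.

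Untreated LSKO against untreated WT cells asks what the ZIP8 knockout does without added metal. The acute phase genes were higher in LSKO cells: 9 of 10 were called higher (edgeR's quasi-likelihood test, a log2 fold change beyond 0.5 with a Benjamini-Hochberg adjusted p under 0.05), where 6.74% of all tested genes were called higher and 3.7% lower, and the median log2 fold change was 0.78 against 0.0028 over all tested genes. Both LSKO libraries lay above both WT libraries for all 10 genes, as they did for 31.8% of tested genes. Orm2, which stood below Orm1 in every library, differed most, at 10.6 and 14.7 normalized CPM in WT and 39.8 and 52.8 in LSKO (log2 fold change 1.89, SE 0.162, adjusted p = 3.5e-05). Its groups did not overlap, and the lower LSKO library was well above the higher WT library. Saa4, the serum amyloid A that is regarded as constitutive, stood at 6.62 and 7.19 in WT and 18.4 and 27.6 in LSKO (1.74, SE 0.182, adjusted p = 0.00012). Crp, C-reactive protein, which responds only mildly to inflammation in mice, was at 13.7 and 13.5 in WT and 32.1 and 45.2 in LSKO (1.51, SE 0.147, adjusted p = 7.93e-05). Saa3, the serum amyloid A that macrophages and other cells outside the liver also make, was at 12.2 and 9.63 in WT and 24.7 and 36.3 in LSKO (1.48, SE 0.172, adjusted p = 0.000246). These 4 genes had the largest log2 fold changes of the 10.

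The other genes differed less between LSKO and WT. Saa1 and Saa2 encode the main acute phase serum amyloids of the liver. Saa1 was at 326 and 290 normalized CPM in WT and 392 and 515 in LSKO (log2 fold change 0.56, SE 0.118, adjusted p = 0.00965), and Saa2 was at 176 and 163 against 225 and 303 (0.64, SE 0.121, adjusted p = 0.00512). Apcs, serum amyloid P component, the main acute phase pentraxin of mice, was at 27.7 and 24.2 against 40.3 and 49.6 (0.79, SE 0.114, adjusted p = 0.00103). Orm1, the major orosomucoid here, was at 252 and 238 against 367 and 473 (0.78, SE 0.109, adjusted p = 0.000872). Each of these pairs of groups was separate, with the higher LSKO value always in replicate 2. Lcn2 was at 858 and 899 against 1226 and 1596 (0.68, SE 0.112, adjusted p = 0.00228). Hp, at 1245 and 1175 against 1544 and 1818, passed the p threshold but not the fold threshold (0.47, SE 0.0914, adjusted p = 0.00591). The count rested on the libraries kept. It fell without WT replicate 1, WT replicate 2 or LSKO replicate 2 and rose without LSKO replicate 1, as did calls over all tested genes. In every alternative, leaving out each replicate among them, log2 fold changes stayed above 0 for all 10 genes, the lowest being 0.36 in Saa1.

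Most of the genes were higher with selenite. Against untreated LSKO cells 9 of 10 genes were called higher, where 7.89% of tested genes were called higher and 9.67% lower, and the median log2 fold change was 1.16 against -0.013 over all tested genes. The selenite library lay above both untreated LSKO libraries for all 10 genes, as it did for 42.6% of tested genes. Saa3 was at 160 normalized CPM with selenite against 24.7 and 36.3 in untreated LSKO (log2 fold change 2.39, SE 0.175, adjusted p = 1.46e-05), the largest change of the 10. Saa1 was at 833 against 392 and 515 (0.88, SE 0.140, adjusted p = 0.00176) and Saa2 at 502 against 225 and 303 (0.93, SE 0.142, adjusted p = 0.00147). Saa4 was the gene not called, at 34.6 against 18.4 and 27.6 (0.58, SE 0.196, adjusted p = 0.0502).

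Beyond the serum amyloids, both pentraxins rose with selenite. Apcs was at 110 normalized CPM against 40.3 and 49.6 in untreated LSKO (log2 fold change 1.29, SE 0.129, adjusted p = 0.000112), and Crp was at 78.6 against 32.1 and 45.2 (1.02, SE 0.161, adjusted p = 0.00168). The orosomucoids, the haemoglobin binder and the siderophore binder rose as well. Orm1 was at 921 against 367 and 473 (1.13, SE 0.128, adjusted p = 0.000264) and Orm2 at 112 against 39.8 and 52.8 (1.27, SE 0.170, adjusted p = 0.000732). Hp was at 3814 against 1544 and 1818 (1.18, SE 0.108, adjusted p = 5.94e-05) and Lcn2 at 3284 against 1226 and 1596 (1.22, SE 0.132, adjusted p = 0.000196). After adjusting each library for the length and GC content of transcripts, 8 of 10 were called by edgeR, Crp being lost (log2 fold change 0.50, adjusted p = 0.0519). The log2 fold changes of Apcs, Orm1 and Orm2 were then 0.60, 0.56 and 0.71. Over all 15468 tested genes, 615 were called higher and 773 lower after this adjustment, against 1221 and 1496 as reported.

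With manganese, too, most of the genes were higher. Against untreated LSKO cells 8 of 10 genes were called higher, in a comparison in which 2.09% of tested genes were called higher and 15.1% lower, and the median log2 fold change was 0.84 against -0.023 over all tested genes. The manganese library lay above both untreated LSKO libraries for 9 of 10 genes (37.7% of tested genes), Saa4 being the exception. Saa3 was at 148 normalized CPM against 24.7 and 36.3 (log2 fold change 2.27, SE 0.175, adjusted p = 1.99e-06). Saa1 was at 793 against 392 and 515 (0.80, SE 0.140, adjusted p = 0.00139) and Saa2 at 482 against 225 and 303 (0.87, SE 0.142, adjusted p = 0.000912). Saa4, at 25.3, lay within the untreated LSKO libraries of 18.4 and 27.6 (0.13, SE 0.200, adjusted p = 0.724).

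The orosomucoids rose with manganese, Orm1 to 789 normalized CPM from 367 and 473 (log2 fold change 0.91, SE 0.129, adjusted p = 0.000297) and Orm2 to 108 from 39.8 and 52.8 (1.22, SE 0.170, adjusted p = 0.00026). Lcn2 stood at 2855 against 1226 and 1596 (1.02, SE 0.132, adjusted p = 0.000154). The pentraxins rose too, Apcs to 78.4 from 40.3 and 49.6 (0.80, SE 0.131, adjusted p = 0.00088) and Crp to 57.1 from 32.1 and 45.2 (0.56, SE 0.163, adjusted p = 0.033). The Crp call was lost in 7 of 13 alternatives, with a log2 fold change of 0.33 without LSKO replicate 1 and, with either WT replicate left out, 0.56 at adjusted p = 0.109 and 0.105. Hp, at 2312 against 1544 and 1818, again passed the p threshold only (0.46, SE 0.11, adjusted p = 0.0115).

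**Figure D2:**
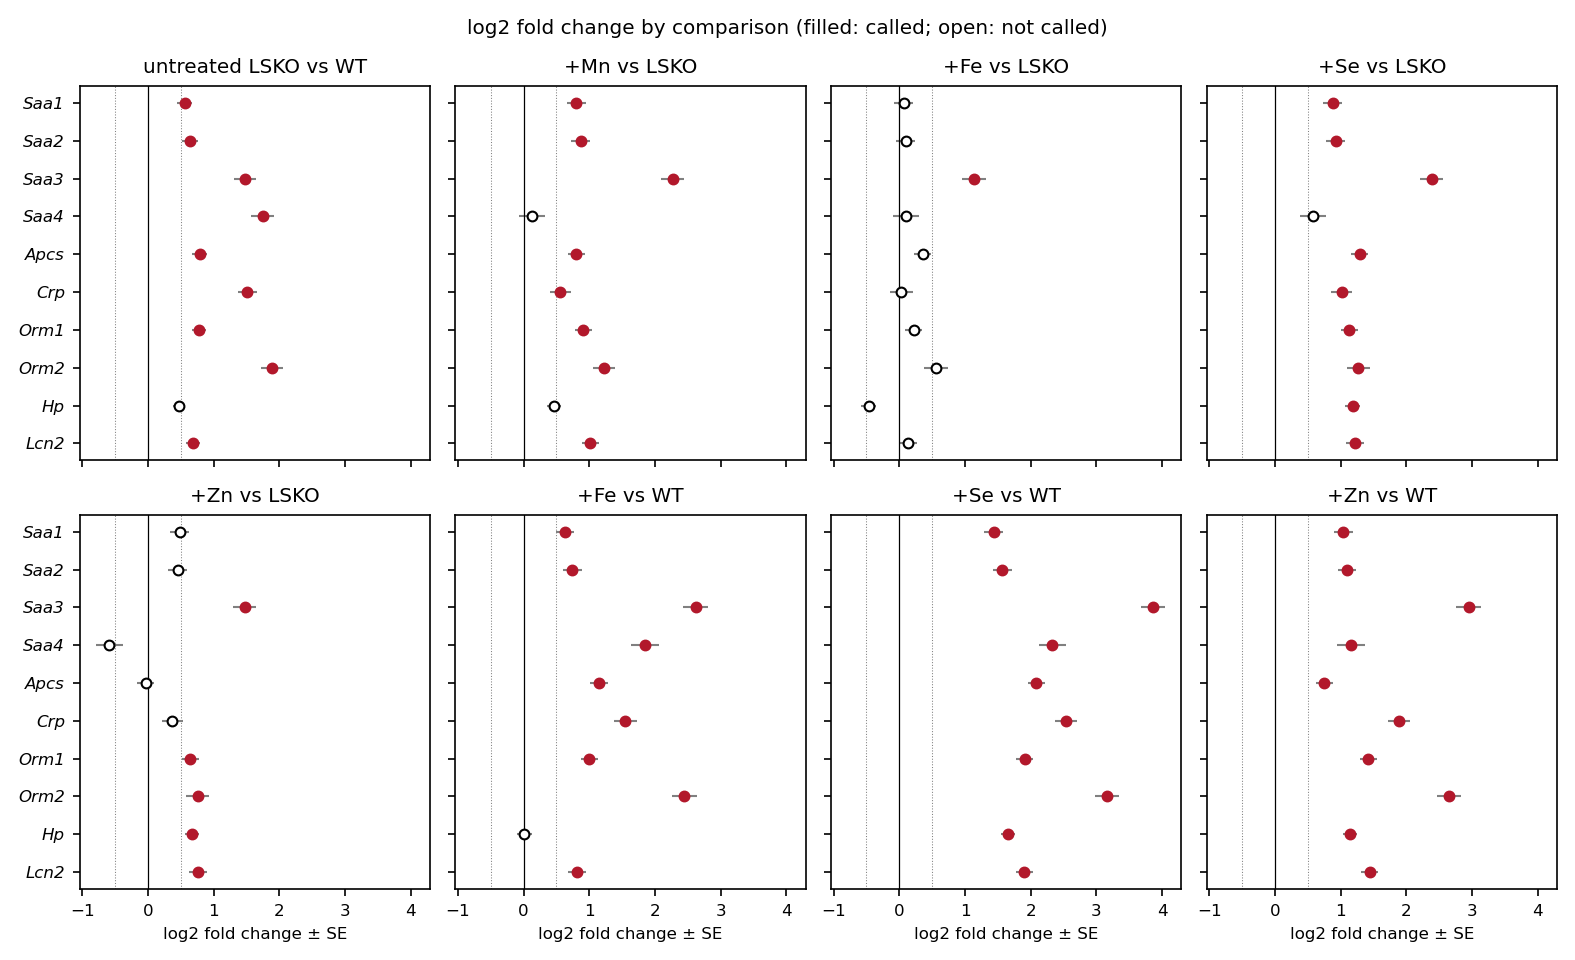
Log2 fold change of the 10 genes (horizontal axis) in 8 comparisons, with bars of 1 standard error from edgeR's quasi-likelihood fit, filled points for genes called, open points for genes not called and dotted lines at 0.5 to either side of 0. Against untreated LSKO, Saa3 has the largest value under each of the 4 metals, at 2.27 (Mn), 1.14 (Fe), 2.39 (Se) and 1.47 (Zn).

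With zinc some of the genes were higher. Against untreated LSKO cells 5 of 10 were called higher (2.9% of tested genes were called higher, 1.55% lower), and the median log2 fold change was 0.56 against -0.010 over all tested genes. The zinc library lay above both untreated LSKO libraries for 8 of 10 genes (38.3% of tested genes), not for Saa4 and Apcs. The called genes were Saa3 at 84.8 normalized CPM against 24.7 and 36.3 (log2 fold change 1.47, SE 0.178, adjusted p = 0.000635), both orosomucoids, Hp and Lcn2. Orm1 was at 656 against 367 and 473 (0.64, SE 0.130, adjusted p = 0.0168), Orm2 at 78.5 against 39.8 and 52.8 (0.76, SE 0.173, adjusted p = 0.0301), Hp at 2668 against 1544 and 1818 (0.67, SE 0.109, adjusted p = 0.0046) and Lcn2 at 2390 against 1226 and 1596 (0.76, SE 0.133, adjusted p = 0.00711). Saa1, at 635 against 392 and 515, and Saa2, at 362 against 225 and 303, lay above both untreated libraries without being called (0.48 and 0.45, adjusted p = 0.0858 and 0.116). Crp, at 50.2 against 32.1 and 45.2, was likewise not called (0.37, adjusted p = 0.256). The low-level genes Saa4 and Apcs had the lowest values, Saa4 at 15.4 against 18.4 and 27.6 (-0.59, SE 0.211, adjusted p = 0.166) and Apcs at 43.9 against 40.3 and 49.6 (-0.04, adjusted p = 0.914). The count fell when either WT replicate was left out and rose without LSKO replicate 2, as did calls over all tested genes. It was 1 when the fit held the compared libraries alone, where 232 of 13722 genes were called higher.

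Iron left most of the 10 genes near the untreated LSKO level. Against untreated LSKO cells 1 of 10 was called higher and 0 lower by edgeR, where 3.8% of tested genes were called higher and 4.89% lower, and the median log2 fold change was 0.12 against -0.0034 over all tested genes. The gene called was Saa3, at 67.5 normalized CPM against 24.7 and 36.3 (log2 fold change 1.14, SE 0.183, adjusted p = 0.00313). Hp went the other way, at 1219 against 1544 and 1818, and passed the p threshold but not the fold threshold (-0.46, SE 0.114, adjusted p = 0.0255). The iron library lay above both untreated LSKO libraries for 4 of 10 genes (42% of tested genes): Saa3, Apcs, Orm1 and Orm2. Apcs was at 57.6 against 40.3 and 49.6 (0.36, SE 0.135, adjusted p = 0.112) and Orm2 at 68.4 against 39.8 and 52.8 (0.56, SE 0.176, adjusted p = 0.0636). Orm1 was at 490 against 367 and 473 (0.22, adjusted p = 0.302). Saa1 (476), Saa2 (283), Saa4 (24.8), Crp (39.7) and Lcn2 (1545) lay between the untreated LSKO libraries. Leaving out LSKO replicate 1 gave 1 higher and 1 lower, and leaving out LSKO replicate 2 gave 3 higher.

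Set against WT, LSKO cells given iron, selenite or zinc are compared between libraries of the same file kind. WT cells received no metal, so genotype and metal cannot be told apart here. These 3 comparisons share the WT libraries with the untreated comparison, so their values are set side by side and not read as separate evidence. With selenite, 10 of 10 genes were called higher (13.8% of tested genes higher, 12.9% lower; median log2 fold change 2.00 against 0.0089 over all), with a largest adjusted p of 7.68e-05. With zinc, 10 of 10 were called higher (6.39% higher, 3.3% lower; median 1.29 against 0.0072), with a largest adjusted p of 0.00734. With iron, 9 of 10 were called higher (5.88% higher, 4.76% lower; median 1.07 against 0.022), and Hp was level with WT, at 1219 against 1245 and 1175 (log2 fold change 0.01, SE 0.112, adjusted p = 0.962). Saa3 was 2.62 above WT on the log2 scale with iron, 3.86 with selenite and 2.95 with zinc, and Orm2 was 2.45, 3.16 and 2.65 above. Apcs was 1.15, 2.08 and 0.75 above, and Saa4 1.85, 2.33 and 1.16 above. All 6 LSKO libraries, metal or not, lay above both WT libraries for 9 of 10 genes, against 11.2% of tested genes, the exception being Hp in the iron library. The zinc and iron counts fell when either WT replicate was left out, as did calls over all tested genes, and the selenite count did not.

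The metals were also compared with each other. Selenite stood above the mean of iron and zinc for all 10 genes, each called (7.53% of tested genes higher, 8.35% lower; median log2 difference 0.79 against 0.017 over all), with a largest adjusted p of 0.0268. The largest differences were in Apcs (1.13, SE 0.129, adjusted p = 0.000915), Hp (1.08, SE 0.108, adjusted p = 0.000651) and Saa3 (1.08, SE 0.173, adjusted p = 0.00256). The count was 6 after the adjustment for length and GC content, and 6 without either WT library, although no WT library enters the difference itself. Iron stood below zinc for Hp (-1.13, SE 0.131, adjusted p = 0.00163) and Lcn2 (-0.63, SE 0.158, adjusted p = 0.0326), and the other 8 genes were not called (3.23% of tested genes higher, 5.01% lower). Saa4 had the highest value in that comparison, 0.69 (SE 0.241, adjusted p = 0.096). Manganese was not set against the other metals, since its library is of the other file kind.

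Within the gene families the make-up of the reads moved with the groups. Saa3 took 2.34% and 2.05% of the reads of Saa1 to Saa4 in WT, 3.74% and 4.11% in untreated LSKO, and 10.2%, 7.93%, 10.4% and 7.74% with manganese, iron, selenite and zinc. All 4 metal libraries lay above all untreated libraries, and untreated LSKO lay above WT. The ratio of Saa2 to Saa1 reads ranged over the 8 libraries from 0.539 to 0.608, and it too was lowest in WT. It was 0.539 and 0.561 in WT, 0.575 and 0.588 in untreated LSKO, and 0.608, 0.593, 0.603 and 0.570 with manganese, iron, selenite and zinc. Orm2 took 4.001% and 5.79% of the reads of Orm1, Orm2 and Orm3 in WT, 9.74% and 9.99% in untreated LSKO, and 11.98%, 12.2%, 10.8% and 10.6% in the same order of metals. These shares were not tested, and they rest in part on how reads shared between near-identical copies were assigned. Of 150-base stretches, 0% in Saa3, Orm1, Orm2 and Orm3 was shared with another gene.

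**Figure D3:**
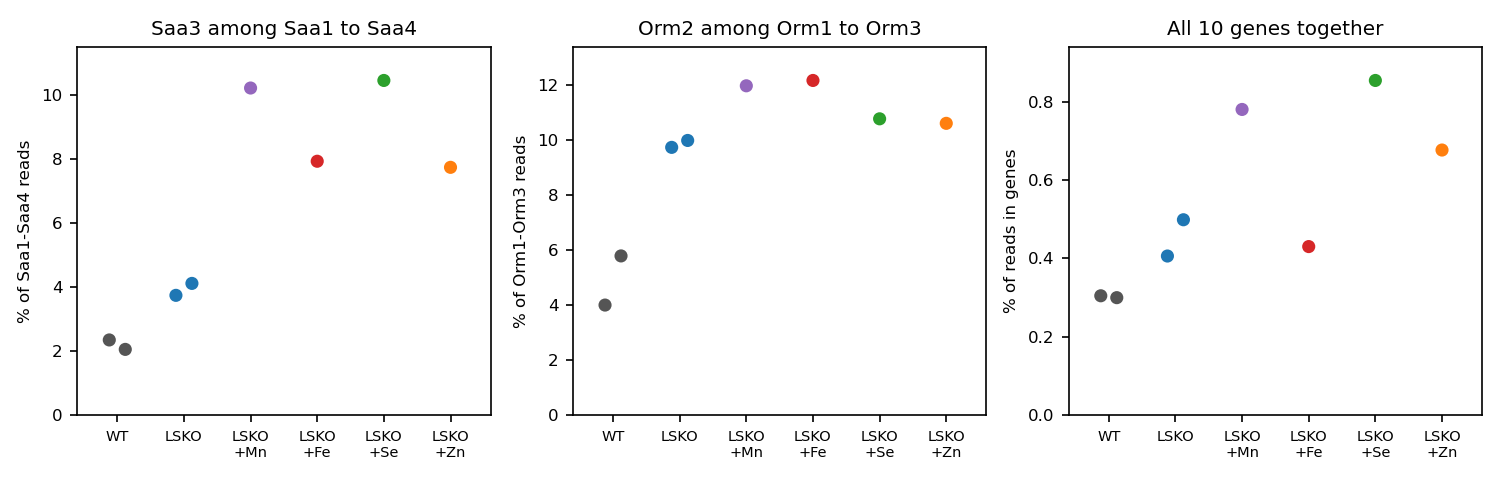
Share of reads in percent (vertical axes from 0), 1 point per library, of Saa3 among Saa1 to Saa4, of Orm2 among Orm1 to Orm3, and of the 10 genes among all reads in genes. Saa3 goes from between 2.05% and 2.34% in WT to between 7.74% and 10.4% under the metals.

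Other genes of the acute phase program moved in the same comparisons. Of 24 further positive acute phase genes, 22 were tested. In untreated LSKO against WT, 14 were called higher and 0 lower (median log2 fold change 0.66), among them the fibrinogen chains Fga (2.24) and Fgg (1.71), the antichymotrypsin relative Serpina3m (1.90) and the fibrinogen-like Fgl1 (1.46). With selenite against untreated LSKO, 12 were called higher (median 0.62), led by Hamp (1.55), which encodes the iron hormone hepcidin, then Fgg (1.24), the metalloreductase Steap4 (1.08) and Fgb (1.06). With manganese 8 were called higher (median 0.38), led by Hamp (1.13), Fgl1 (0.91), the haem binder Hpx (0.73) and the lipopolysaccharide co-receptor Cd14 (0.68). With zinc 2 were called higher, Hamp (1.62) and Hpx (0.62). With iron 0 were called higher and 4 lower, namely Hamp (-1.75), Steap4 (-1.57), Fga (-1.04) and Fgb (-0.69). Fgg shares 115 exon bases with a gene on the opposite strand. Leaving out LSKO replicate 1 gave a manganese count of 4, and leaving out LSKO replicate 2 gave 13 with manganese and 10 with zinc.

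Negative acute phase genes, which fall in inflammation, did not go down as a group. Of 12 tested, 9 were called higher in untreated LSKO against WT (median log2 fold change 0.77), among them the apolipoprotein Apoa1 (1.46), transthyretin (Ttr, 1.02), Apoa2 (1.01) and Apoc3 (0.91). With selenite 4 were called higher and 0 lower (median 0.46), namely Apoa2 (0.76), Ttr (0.75), albumin (Alb, 0.61) and Apoc3 (0.55). With manganese 3 were called higher, Serpina6 (1.12), Apoa2 (0.67) and Ttr (0.55). With zinc 0 were called by edgeR (median -0.06), 1 having an unadjusted p under 0.05, and with iron Apoc3 alone was called, lower (-0.61). Without LSKO replicate 1 the count was 0 with manganese and 0 with selenite by edgeR, and without LSKO replicate 2 it was 8 and 6. Secreted liver products of both classes were thus higher in LSKO than in WT cells.

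Hepatocyte markers were read in the same comparisons. Of 8 markers, 7 were called higher in untreated LSKO against WT (median log2 fold change 0.83), 3 with selenite (median 0.33), 1 with manganese, where 1 was also lower (0.31), 0 with zinc (0.03) and 1 with iron (-0.25). Their summed level was 21471 to 22442 normalized CPM in WT, 30399 to 38115 in untreated LSKO, and 43759, 31855, 51054 and 37742 with manganese, iron, selenite and zinc. Alb, Apoa1 and Ttr stand in both this list and the negative acute phase list. In whole-culture RNA, more cells of a type and more RNA per cell cannot be told apart, and the part of the hepatocyte share in the results was not tested.

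Receptors and transcription factors upstream of these genes were read as well. Of 14 receptors and signal transducers of interleukin-6 and interleukin-1, 0 were called in untreated LSKO against WT by edgeR (5 had an unadjusted p under 0.05), and 1 was called lower each with manganese (Irak4, -1.22, which shares 395 of its exon bases with Twf1 on the opposite strand), iron (the oncostatin M receptor Osmr, -0.85) and selenite (the kinase Tyk2, -0.54, with 554 exon bases opposite 1700084C06Rik). With zinc 0 were called, 1 having an unadjusted p under 0.05. Of 16 transcription factors and feedback regulators, Cebpd (0.86) and Hnf4a (0.63) were called higher in untreated LSKO. With selenite 3 were called higher and 3 lower, among them Nfkbiz (0.78), an NF-kB cofactor, Cebpb (-1.10) and Rela (-0.61). Nfkbiz was called higher and Cebpb lower with manganese (0.67 and -1.64) and with zinc (0.75 and -0.66) too. With iron Atf3 (0.86) and Cebpa (0.64) were called higher and Nfkbia (-0.79) lower. Cebpb and Cebpd share 312 and 562 exon bases with genes on the opposite strand, so their reads are uncertain where strand was not used in counting.

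**Figure D4:**
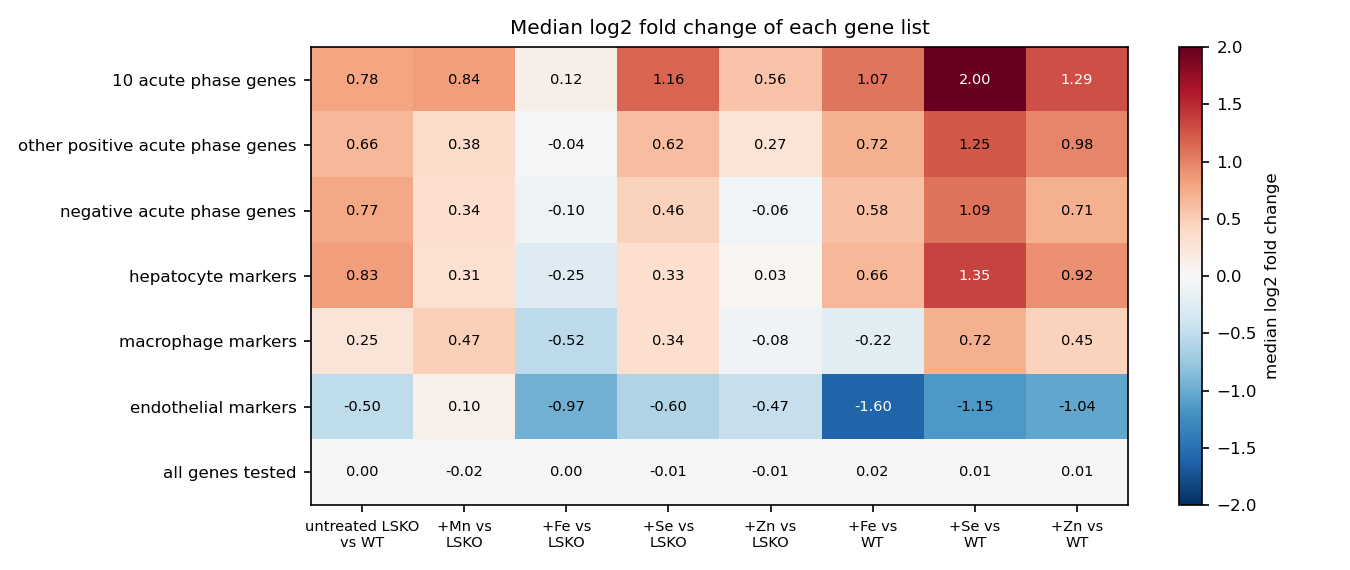
Median log2 fold change (colour and printed value) of the 10 genes, 5 other gene lists and all tested genes, from top to bottom, in 8 comparisons from left to right. The 10 genes stand at 0.78 in untreated LSKO against WT and at 0.84, 0.12, 1.16 and 0.56 with manganese, iron, selenite and zinc against untreated LSKO.

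Other cells of the liver also make some of the 10 genes, Saa3 and Lcn2 above all, so their markers were read in the same libraries. Of 13 macrophage markers, 12 were tested. They summed to 233 to 257 normalized CPM in WT, 303 to 346 in untreated LSKO, and 559, 349, 401 and 345 with manganese, iron, selenite and zinc. Adgre1 (F4/80) was at 3.57 and 3.97 in WT, 3.56 and 3.79 in untreated LSKO, and 10.6, 3.44, 12.5 and 9.32 in the same order of metals, and the scavenger receptor Marco was at 13.5 and 7.41, 8.01 and 7.61, and 26.9, 11.5, 26.0 and 23.8. Adgre1 was thus high in the 3 libraries in which Saa3 was highest, and not in the iron library, where Saa3 was also called higher. Adgre1 and Marco do not stand for the whole list. Over the 12 tested markers the median log2 fold change against untreated LSKO was 0.47, -0.52, 0.34 and -0.08 with manganese, iron, selenite and zinc. With zinc 10 of the 12 were not called. By edgeR, 4 macrophage markers were called higher in untreated LSKO against WT, 4 higher and 1 lower with manganese, 3 higher with selenite, 2 higher with zinc and 5 lower with iron. Of 11 neutrophil markers 2 were tested, and 1 was called higher each with manganese, selenite and zinc against untreated LSKO by edgeR. The 11 summed to 0.659 and 0.523 normalized CPM in WT and 0.616 and 0.551 in untreated LSKO. With manganese, iron, selenite and zinc they summed to 1.99, 0.498, 3.16 and 2.12. Elane and Cxcr2 had no reads in any library, and S100a8 reached 2.27 with selenite. The part of macrophages in the results was not tested.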

How the data were processed

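The authors trimmed reads with Trimmomatic, aligned them to GRCm38 with HISAT2 and counted them per gene with HTSeq, and they deposited raw counts, 1 file per library. For HTSeq, the strand setting and annotation release were not given in the sources used here, nor was the quality minimum. Each of the 55450 gene identifiers matched GENCODE M21, from which symbols and coordinates were taken. Summary lines that name no gene were left out, and 39.3% to 42.1% of reads (72.2% with manganese) remained in genes.

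Genes with at least 80 counts summed over the 8 libraries (15468) were fitted together with 6 groups in edgeR 4.0.16 (R 4.3.3; TMM scaling, quasi-likelihood F-test, 2 residual and 8.53 prior degrees of freedom, biological coefficient of variation 8.29%), with Benjamini-Hochberg adjustment over all of them. Calls needed a log2 fold change beyond 0.5 at an adjusted p under 0.05. Standard errors were the absolute log2 fold change over the root of the F statistic. On counts simulated for selenite against untreated LSKO over 15468 genes, 85% of 2-fold and 95% of 4-fold changes were recovered, and 6 unchanged genes were called. The simulation cannot supply the spread within selenite, which 1 library does not measure. Replicates differed by more than counting noise (chi-square per degree of freedom 5.98 in WT and 13.3 in LSKO). Alternatives were DESeq2 1.42.0, other scalings and filters, a length and GC correction (MASS 7.3.60.0.1), a sum of near-identical copies and leaving out each replicate. Promoters came from RefSeq tables of GRCm38.p6. Identity was computed over the 250 bases.

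Genes named from a list were the up to 4 called with the largest change. Some items are not reported here. The 10 genes and all lists were chosen with earlier results of these data known.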

Additional observations from a re-analysis of the deposited data

How the results depend on the processing

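With 1 library per metal, no spread within a metal was measured, and the counts below lean on the 4 untreated libraries. Counts are of the 10 genes called. Where a replicate was left out, calls over all tested genes also changed, and the ranges given for that are not read as a result about the 10 genes. With all 4 untreated libraries of both genotypes as one control, the count against untreated cells was 1 for manganese, 0 for iron, 1 for selenite and 0 for zinc by edgeR. Over all 15468 tested genes that setting called 98 higher and 1952 lower for manganese, and 1 and 1 for iron. It called 331 and 500 for selenite, and 0 and 0 for zinc. As reported, 324, 588, 1221 and 448 genes were called higher in that order, so calls fell over all genes. With iron against untreated LSKO the count was 2 without a fold threshold, 2 without a filter on low counts and 2 with the length and GC correction. Over all genes, 743 of 31088 were called higher without the filter and 568 of 15468 with the correction. With zinc the count was 1 when the libraries compared were fitted alone, a fit that called 232 of 13722 genes higher and 129 lower. For selenite against the mean of iron and zinc the count was 6 with the length and GC correction, and for iron against zinc it was 1 with DESeq2. Over all 15468 genes, the first called 557 higher and 540 lower, and the second 234 higher and 424 lower. Leaving out each replicate gave 7 to 9 for manganese, 1 to 3 for iron (3 without LSKO replicate 2), 9 to 10 for selenite, 2 to 8 for zinc (2 without either WT replicate, 8 without LSKO replicate 2), 5 to 10 for untreated LSKO against WT (5 without WT replicate 2), 6 to 9, 10 and 6 to 10 for iron, selenite and zinc against WT, 6 to 10 for selenite against the mean of iron and zinc (6 without either WT replicate) and 1 to 3 for iron against zinc (1 without either WT replicate). A replicate block left the untreated LSKO count at 9, as did the crossed pairing, which was added after seeing the data, as were protein-coding genes alone and a fit without the manganese library. Same-numbered replicates share only a number (correlation of their deviations -0.123 over 10880 genes). Of 143 alternative values of these counts, 122 stayed within 1.5 times the reported count.

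Signs turned as follows, on the log2 scale, and the cause was not tested. Leaving out each replicate, with the lowest value without LSKO replicate 1, gave -0.13 to 0.47 for Saa4 with manganese, and with iron -0.14 to 0.27 for Saa1, -0.13 to 0.32 for Saa2, -0.18 to 0.42 for Saa4, -0.22 to 0.29 for Crp and -0.074 to 0.32 for Lcn2. With zinc, Apcs was 0.13 without LSKO replicate 2 and 0.31 with the 4 untreated libraries as control, where Saa4 was 0.040. Hp with iron against WT was -0.0037 with median-ratio size factors and with DESeq2, -0.013 without a filter, -0.0024 with filterByExpr, -0.072 with the length and GC correction, -0.032 to 0.059 when each replicate was left out (lowest without WT replicate 2) and -0.018 with the compared libraries alone. Orm2 in iron against zinc was 0.11 with the length and GC correction. Each of these values belongs to a gene that was not called as reported.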

Other observations

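The cultures were kept in dexamethasone, and glucocorticoid response genes were read beside the acute phase genes. Of 12 such genes, 3 were called higher in untreated LSKO against WT, the tyrosine aminotransferase Tat (log2 fold change 1.41), the gluconeogenic enzyme Pck1 (1.11) and Cebpd (0.86). With selenite 3 were called higher and 1 lower, the metallothioneins Mt2 (0.80) and Mt1 (0.79), Cebpd (0.54) and the clock gene Per1 (-1.15). With zinc the metallothioneins alone were called, Mt2 at 1.26 and Mt1 at 1.15. With iron 3 were called higher and 1 lower, among them Tat (0.91) and Tsc22d3 (-0.90). Mt2 was at -4.07 with manganese, and 432 of its 588 exon bases lie opposite another gene.

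Partners of the 10 gene products were also measured. Of 10 receptors and ligands, 7 were tested. Fpr2, a receptor for serum amyloid A, was at 0.14 and 0.26 normalized CPM in WT and 0.44 and 0.48 in untreated LSKO. It was at 2.20 with manganese, 3.50 with selenite and 1.14 with zinc, and had no reads with iron. Tlr2 was called higher with selenite (0.84) and zinc (0.83) and lower with iron (-0.58). Hmox1, which breaks down haem, was called higher with iron (1.30) and manganese (0.68) and lower in untreated LSKO against WT (-0.53). Lrp1, which takes up complexes of haem and hemopexin, was called lower with selenite (-1.24).

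Sinusoidal endothelial and stellate cell markers had 0 genes called higher by edgeR in untreated LSKO against WT or with any metal against untreated LSKO. Of 8 sinusoidal endothelial markers, 3 were called lower in untreated LSKO against WT, and 1, 7, 4 and 1 with manganese, iron, selenite and zinc, with summed levels of 262 to 279 normalized CPM in WT, 166 to 213 in untreated LSKO and 198, 106, 144 and 139 under the metals. Of 8 stellate cell and fibroblast markers, 1 was called lower in untreated LSKO and 0, 4, 3 and 2 with the metals in that order by edgeR. Of 6 cholangiocyte markers, 3 were tested, of which 1 was called lower in untreated LSKO against WT, 1 with manganese, 2 with iron and 1 with zinc, and Spp1 was called higher with selenite (0.58).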
